A study of Mus musculus with 3 samples.

Results

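The collagen genes of the mouse were followed through single cells of the day 7 fracture callus, the soft bridge of cartilage, fibrous tissue and vessels that forms around a broken bone. Members were the genes whose symbol is Col, a number, the letter a and a number, with the exception of Col10a1. They came to 43 of the 32285 gene rows, and each had at least 1 UMI (unique molecular identifier, a count of 1 captured messenger RNA molecule) in the cells kept. All mice were 9-week-old C3H/HeJ females, a strain described as slow in fracture healing, with a pinned femur and a fracture of its midshaft. They were injected under the skin once a day with vehicle (PBS, the control), with the parathyroid hormone fragment PTH 1-34 at 100 µg/kg (PTH), or with the kinase inhibitor YKL-05-099 at 15 mg/kg (YKL). One library was made per group on day 7, from callus dissected away from marrow and digested with collagenase, an enzyme that cuts the very proteins these genes encode. The labels do not say how many mice each library pools. With 1 library per group no test between groups was possible, no difference has a replicate check, and every interval given in parentheses (95%) covers counting error only.

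The control, PTH and YKL libraries held 55250651, 33981167 and 19424073 UMIs, and 2944, 1913 and 606 cells were kept, whose median depth was 11736, 12293 and 25867.5 UMIs. Collagens made up 5.72%, 5.88% and 6.58% of the UMIs of those cells. Cells were grouped without using any collagen gene and named from other markers, so collagen levels played no part in the classes. By library, in the order control, PTH and YKL, chondrocyte-like cells numbered 1578, 755 and 440, and endothelial-like cells 188, 290 and 53. Fibroblast-like cells came to 113, 295 and 18, pericyte-like cells to 83, 62 and 10, and tendon-like cells to 1, 218 and 1. Schwann-like cells numbered 68 over all libraries, and no cluster met the rule for osteoblast-lineage cells. Levels are CPM, the usual counts-per-million scale, taken over all UMIs of a class in its library. Each captured molecule gives 1 UMI at its 3′ end, so the levels are not scaled by gene length.

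Collagens are the main proteins of the extracellular matrix. Each chain repeats a triplet that begins with glycine, and 3 chains wind into a triple helix. Fibrillar types (I, II, III, V, XI) build the ropes of cartilage, bone and tendon, fibril-associated types (IX, XII, XIV, XVI) sit on those ropes, type VI forms beaded filaments around cells, and types IV, XV and XVIII belong to the basement membranes of vessels and nerves. In a healing fracture, type II cartilage matrix is laid down first and is later replaced by bone, whose matrix is mostly type I.

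The repeat is visible in the coding sequences. The first 6 triplets of the longest unbroken run are shown for 5 members that stand for the main patterns of the callus, read 5′ to 3′ along the coding strand, with the first 2 bases of each glycine codon in capitals. The sequences come from the GENCODE vM21 transcripts (build GRCm38).
Col2a1: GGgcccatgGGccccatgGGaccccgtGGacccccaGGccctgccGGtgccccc
Col9a1: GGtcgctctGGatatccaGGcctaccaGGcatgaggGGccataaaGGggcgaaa
Col11a1: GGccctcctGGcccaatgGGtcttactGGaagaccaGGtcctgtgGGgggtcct
Col1a1: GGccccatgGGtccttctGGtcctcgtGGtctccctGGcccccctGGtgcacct
Col4a1: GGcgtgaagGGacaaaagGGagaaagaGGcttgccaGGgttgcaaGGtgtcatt
These stretches start at codon 201 of Col2a1 (gene at chr15:97975602-98004695), codon 418 of Col9a1 (chr1:24177610-24252684), codon 527 of Col11a1 (chr3:114030540-114220718), codon 168 of Col1a1 (chr11:94936224-94953042) and codon 43 of Col4a1 (chr8:11198423-11312826). The run is 339 triplets long in Col2a1 and 338 in both Col1a1 and Col11a1. In Col4a1 the longest of 22 runs has 40 triplets, and in Col9a1 the longest of 6 has 113. Across the 11 fibrillar members the longest run had 216 to 344 triplets in 2 or 3 runs per gene, against 39 to 66 triplets in 22 to 27 runs for the 6 chains of type IV.

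Which collagens marked which cells was read by a fixed rule. The level was at least 50 CPM in some class with at least 50 cells in at least 1 library. A collagen past it was said to mark the class of its highest CPM, at least 2-fold above the next. This had to hold in every library with at least 50 cells of that class. Schwann-like cells had no such library and could not be marked. In YKL only chondrocyte-like (440) and endothelial-like cells (53) were that many, so there each was compared with the other alone. Of the 43 members, 26 reached the level, and 14 of these marked a class. Cartilage was marked by 7 members (Col2a1, Col9a1, Col9a2, Col9a3, Col11a1, Col11a2 and Col27a1), tendon-like cells by 6 (Col1a1, Col1a2, Col6a1, Col8a2, Col12a1 and Col23a1) and fibroblast-like cells by 1 (Col14a1). Of the 5955 genes that could be read by the same rule, 3.11% marked chondrocyte-like, 1.06% tendon-like and 1.90% fibroblast-like cells. Endothelial-like and pericyte-like cells were marked by no collagen, where 4.77% and 2.82% of all genes marked them. These calls changed with the cell filters and the depth. With a minimum of 200 genes per cell, where the tendon-like class grew from 1, 218 and 1 cells to 60, 296 and 18 (control, PTH and YKL), no collagen marked chondrocyte-like or tendon-like cells. Endothelial-like cells were marked by 4 collagens at a mitochondrial maximum of 5% and by 1 with cells thinned to 2000 UMIs. The other 12 members past the level were shared between classes (Col3a1, Col4a1, Col4a2, Col5a1, Col5a2, Col5a3, Col6a2, Col6a3, Col8a1, Col15a1, Col16a1 and Col18a1).

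**Figure D1:**
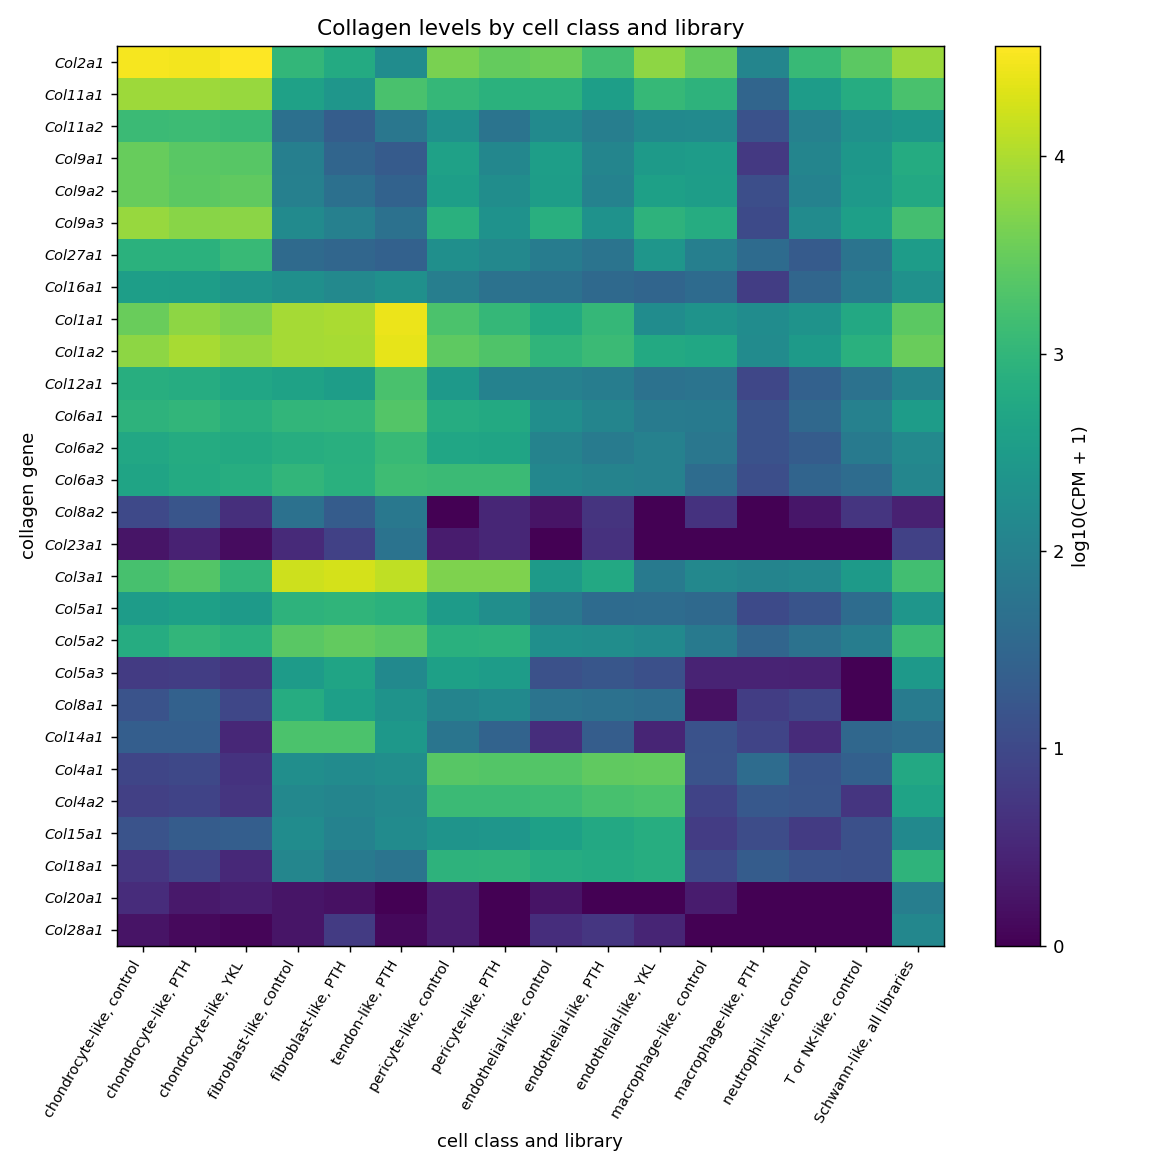
Levels of the 28 named collagens (rows) in each class of at least 50 cells by library, and in Schwann-like cells over all libraries (columns), as log10(CPM + 1). Types II, IX, XI and XXVII are brightest in the 3 chondrocyte-like columns. Types I and III and the type V chains Col5a1 and Col5a2 are brightest in fibroblast-like and tendon-like columns, and Col5a3 is bright in fibroblast-like and pericyte-like columns. Types IV and XV are brightest in pericyte-like and endothelial-like columns, and Col18a1 in the Schwann-like column (927 CPM).

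Cartilage collagens dominated the callus. Col2a1, the chain of the type II fibril, stood at 31412 CPM in control, 30303 in PTH and 36182 in YKL chondrocyte-like cells, 7.17, 9.94 and 5.96 times the next class. In YKL that next class was endothelial-like cells, the only other class read. The 3 libraries were close, with YKL the highest. Col11a1, whose chain is built into the type II fibril, was at 7748, 7715 and 7179.7 CPM, and its partner Col11a2 at 1263, 1310.4 and 1237. Type IX coats the type II fibril, and its 3 chains differed in level: Col9a3 stood at 7105, 5589 and 5892 CPM, above Col9a1 (3119, 2459 and 2386) and Col9a2 (3171, 2620.3 and 2809.9). The control library was the highest for all 3 chains of type IX. Col27a1, a fibrillar chain of cartilage, had 821, 827 and 1175 CPM, the highest again in YKL.

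Chondrocyte-like cells also carried the collagens of other tissues. Col1a2 and Col1a1, the chains of type I, stood at 6161 and 3299 CPM in the control library, and Col3a1, the type III chain of loose fibrous tissue, at 1677. Col16a1, a fibril-associated chain, had its highest control level here (353 CPM) but only 1.94 times that of the next class, and so marked none. Of all collagen UMIs of the class, Col2a1 took 45% in control, 41.5% in PTH and 49.2% in YKL. Fibril-associated collagens took 20.7%, 16% and 16.1%, and type IV 0.0277%, 0.0291% and 0.0177%. Among classes of at least 50 cells, cartilage thus held the highest share of fibril-associated chains in each library except in the control, where macrophage-like cells had 21.2%.

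**Figure D2:**
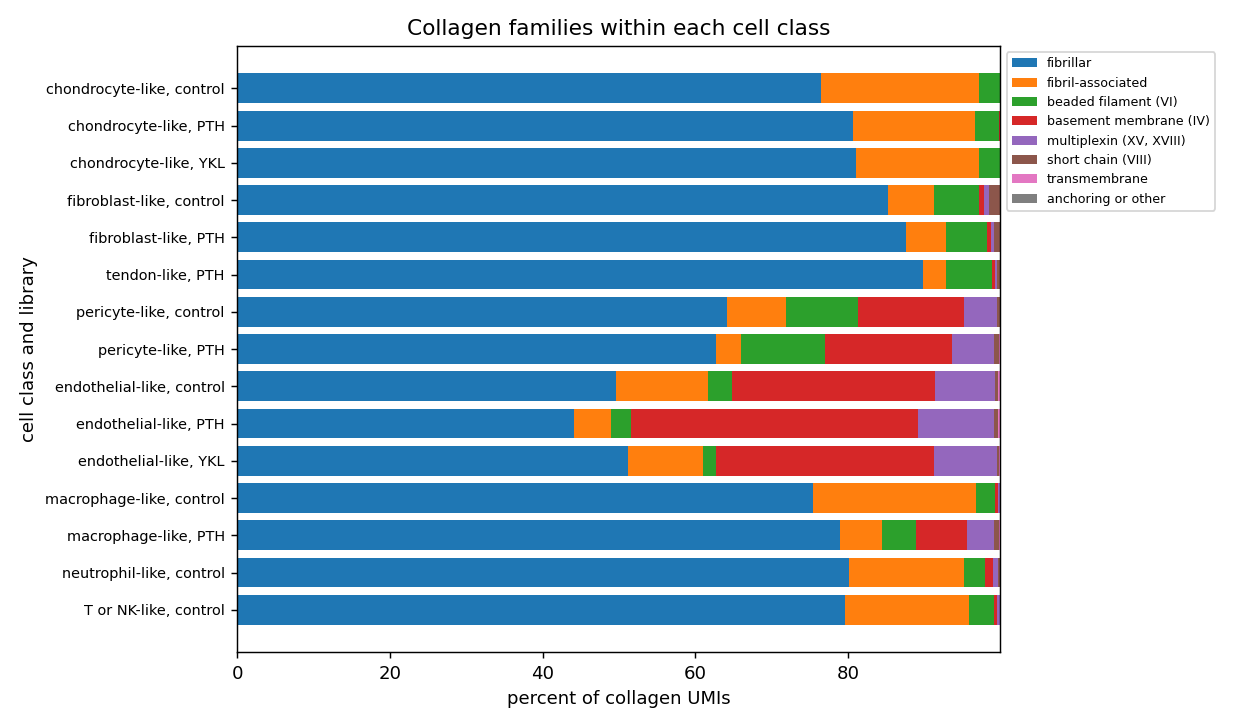
Collagen UMIs of each class and library of at least 50 cells, divided among the collagen families (bars, percent of the collagen UMIs of that class). The type IV segment is widest in endothelial-like cells (26.5%, 37.7% and 28.6% in control, PTH and YKL) and too thin to see in chondrocyte-like cells.

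Fibroblast-like cells had Col3a1 as their leading collagen. It stood at 16532 CPM (16301 to 16765) in the control and 18248 CPM (18104 to 18392) in the PTH library, and took 35.6% and 37.9% of the class's collagen UMIs. Col1a1 followed with 8971 and 9652 CPM and Col1a2 with 8888 and 9131. Both libraries lay within 1.5-fold of each other for these 3 genes. The type V chains, which seed type I fibrils, were high as well, Col5a2 at 2501 and 2885 CPM, Col5a1 at 877 and 973 and Col5a3 at 321 and 451. Col14a1, a fibril-associated chain, was the mark of the class at 1846 and 1844 CPM, 31.9 and 6.77 times the next class. Col8a1, a short network-forming chain, reached 662 CPM in control and 372 in PTH fibroblast-like cells, above every other class of at least 50 cells in both libraries.

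Tendon-like cells had the highest collagen share of the PTH library's classes. They could be read in the PTH library alone, so each of the 6 members that marked them did so in 1 library. Collagens were 7.86% of the class's UMIs there, and Col1a1 (26998 CPM) and Col1a2 (24885 CPM) made up 34.3% and 31.7% of those. They stood 2.8 and 2.73 times above the next class. Col12a1, a fibril-associated chain of dense connective tissue, was at 1780.0 CPM (2.67 times the next class), and Col6a1, a type VI chain, at 2159 (2.06 times). The low chains Col8a2 and Col23a1, the second a transmembrane collagen, reached 67.1 and 54.6 CPM. The other type VI chains, Col6a2 at 1194 and Col6a3 at 1368 CPM, were highest in tendon-like cells too but less than 2-fold above the next class. Col3a1 was at 13268 CPM, below the 18248 of fibroblast-like cells. Col11a1 stood at 1768 CPM in tendon-like cells, while its cartilage partners Col2a1 (163), Col9a1 (19.6) and Col9a3 (49.4) were low there. There were 10.8 Col11a1 UMIs per Col2a1 UMI in tendon-like cells, against 0.255 in chondrocyte-like cells of the same library.

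Vessel cells held the basement membrane collagens. In endothelial-like cells Col4a1 was at 2178 CPM in control, 2756 in PTH and 2942 in YKL, and its partner Col4a2 at 1334, 1679 and 1865. Pericyte-like cells, which wrap small vessels, had 2329 and 2201 CPM of Col4a1 and 1279.8 and 1305 of Col4a2 in control and PTH. The 2 classes differed by less than 2-fold in both libraries for both genes. Chondrocyte-like cells stood at 8.01, 8.76 and 3.65 CPM of Col4a1. Col15a1 and Col18a1, the multiplexins that hold basement membranes to the matrix around them, followed the same classes. Col15a1 was higher in endothelial-like (388, 567 and 691 CPM) than in pericyte-like cells (229 and 247). Col18a1 had the opposite order, with 891 and 909 CPM in pericyte-like and 657, 611 and 695 in endothelial-like cells.

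Pericyte-like cells differed from endothelial-like cells by their fibrous collagens. Col3a1 was at 4802 CPM in control and 4714 in PTH pericyte-like cells, against 306 and 571 in endothelial-like cells. Col6a3 stood at 1284 and 1288 CPM, and Col5a3 at 390.1 and 335, a level close to that of fibroblast-like cells. Both libraries of pericyte-like cells lay above both of endothelial-like cells for these 3 genes. Schwann-like cells, the sheath of nerve fibres, were read over all libraries together since none held 50 of them. Col18a1 reached 927 CPM and Col4a1 569 there. The rare chains Col28a1, a collagen of nerve sheaths, and Col20a1 stood at 126 and 86.5 CPM, while every other class of at least 50 cells was below 5 CPM for both over all libraries. Their cartilage transcripts were not low either, at 7368 CPM of Col2a1.

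Cartilage transcripts were also counted in cells that should lack them. The control library had the highest Col2a1 level in leukocyte-like cells. In endothelial-like cells the summed chondrocyte markers were highest in YKL (4315 CPM, against 2543 in control and 927 in PTH). Leukocyte-like cells (neutrophil-like, T or NK-like and B-like together), which are not known as makers of fibrillar collagen, held 2516 Col2a1 UMIs in 479 control cells (1704 CPM), 51 in 35 PTH cells (602 CPM) and 90 in 26 YKL cells (944 CPM). Chondrocyte-like, endothelial-like and leukocyte-like cells were deep to different degrees: median UMIs in the control were 16129 in chondrocyte-like, 5213.5 in endothelial-like and 2809 in neutrophil-like cells. Each collagen was therefore also given as UMIs per Col2a1 UMI in a class, divided by the same in leukocyte-like cells of that library, so that a collagen present in no more than the proportion of this background lies near 1. By this measure the control endothelial-like cells were near 1 for Col1a1 (0.968 (0.861 to 1.09)), Col3a1 (0.918 (0.782 to 1.08)) and Col9a1 (1.12 (0.96 to 1.32)). They stood at 73.4 (48.4 to 117) for Col4a1, 55 (34.7 to 93) for Col4a2, 27.1 (17 to 45.9) for Col18a1 and 26.2 (14.5 to 52.8) for Col15a1. Col1a1, Col3a1 and Col9a1 in control endothelial-like cells thus had about the leukocyte proportion to Col2a1, which is not the same as the leukocyte level. The basement membrane collagens were above that proportion by more than the counting interval.

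The same measure separated the fibrous classes. In control fibroblast-like cells Col14a1 stood at 400.4 (223 to 803), Col5a3 at 383 (105 to 3175), Col8a1 at 175 (91.9 to 385) and Col3a1 at 159.7 (141 to 182), with Col1a1 at 48.2. The Col5a3 values rest on 2 leukocyte UMIs. The type IX chains lay at 0.938, 0.967 and 1.04, near the leukocyte proportion. Pericyte-like cells of the control had 112 (30.7 to 929) for Col5a3, 60.8 (40 to 97.2) for Col4a1, 11.5 (8.94 to 15.1) for Col6a3 and 11.2 (9.81 to 12.7) for Col3a1, but only 2.41 (2.17 to 2.69) for Col1a1. Control macrophage-like cells were at 0.45 for Col3a1 and 0.399 for Col1a1, below the leukocyte proportion. In the PTH library, where the leukocyte background rests on 35 cells, tendon-like cells stood at 228 for Col1a1, 29.1 for Col11a1 and 1.23 for Col9a1.

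**Figure D3:**
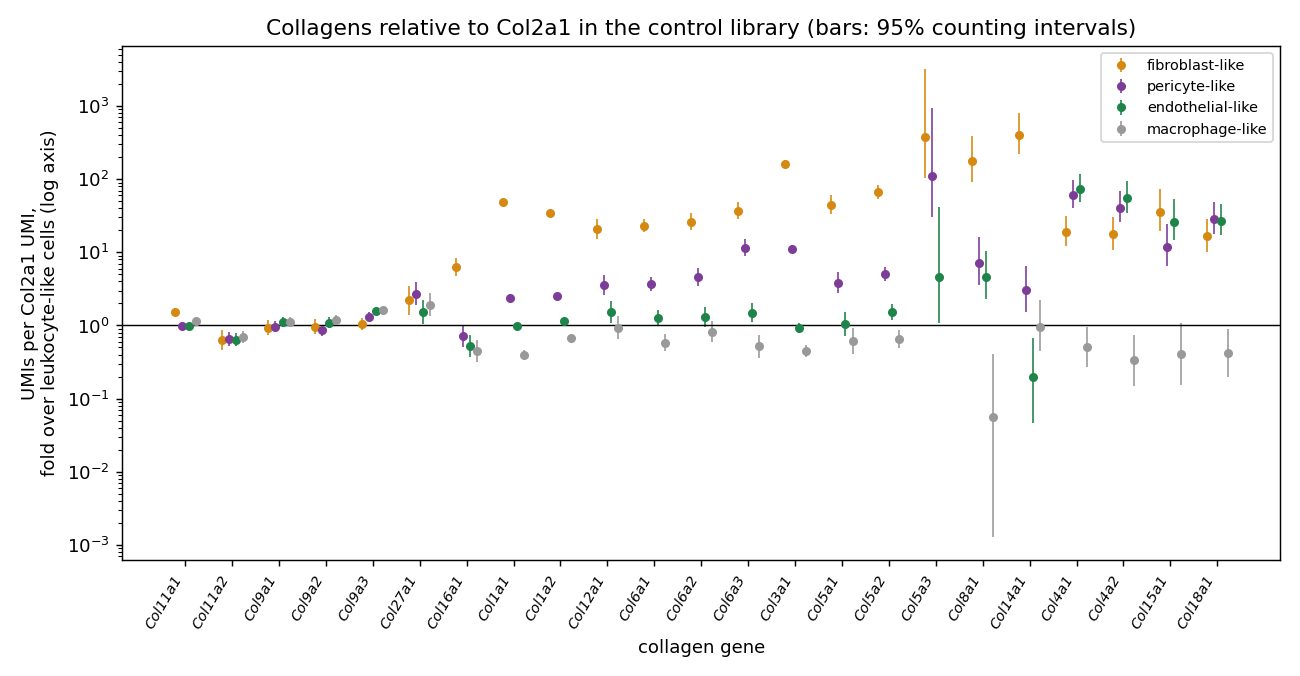
UMIs of each collagen per Col2a1 UMI in 4 control classes (colours), divided by the same in leukocyte-like control cells, on a log axis with 95% counting intervals. The line at 1 is the leukocyte proportion to Col2a1, and the type IX and XI chains of the classes shown lie within 2-fold of it. Type IV of endothelial-like (73.4 for Col4a1) and Col3a1 of fibroblast-like cells (159.7) lie well above it.

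Chains of 1 protein were not always found in the ratio in which they assemble. Type I has a pair of Col1a1 chains to each Col1a2 chain, and the UMI ratio of Col1a1 to Col1a2 was 1.08 in tendon-like and 1.01 and 1.06 in fibroblast-like cells (control and PTH). It was 0.536, 0.68 and 0.678 in chondrocyte-like cells of control, PTH and YKL, below the fibrous classes read in control and PTH. YKL had too few fibroblast-like and tendon-like cells for this comparison. Within the vessel classes the type IV pair kept a narrow range, with 1.63, 1.64 and 1.58 Col4a1 UMIs per Col4a2 UMI in endothelial-like cells and 1.82 and 1.69 in pericyte-like cells. The ratio was lower in fibroblast-like (1.32 and 1.31), tendon-like (1.29) and chondrocyte-like cells (1.25, 1.19 and 0.893). In type VI the balance shifted by class as well, with 1.92 and 2.22 Col6a3 UMIs per Col6a1 UMI in pericyte-like cells and 0.535, 0.61 and 0.903 in chondrocyte-like cells. Col3a1 outnumbered Col1a1 in fibroblast-like (1.84 and 1.89) and pericyte-like cells (2.57 and 4.42) but not in tendon-like cells (0.491). A difference in how well 2 transcripts are captured would enter each of these ratios.

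Some members that keep the same cells also lie side by side in the genome. Col4a1 (chr8:11198423-11312826, minus strand) and Col4a2 (chr8:11312805-11449287, plus strand) point away from each other, and their annotated starts overlap by 22 bases. Col3a1 and Col5a2, both highest over all libraries in fibroblast-like cells, lie tail to tail 24614 bases apart on chromosome 1. Col6a1 and Col6a2 are 85161 bases apart on chromosome 10. Proximity did not always go with level, since Col9a1 and Col19a1 are 9205 bases apart on chromosome 1 and Col19a1 had 83 UMIs in all kept cells against 159586 for Col9a1. Short motifs were sought on both strands of the 250 bases before each start in the RefSeq table (GRCm38.p6), which held 37 windows for 34 members. The letters GGGCGG were in 59.5% of these windows and in 32.7% of all 32851 windows, CCAAT in 35.1% and 33.8%, and TATAAA in 10.8% and 12.4%. Col4a1 and Col4a2 both held CCAAT, and the 4 members with TATAAA were Col3a1, Col11a2, Col13a1 and Col17a1. Such matches describe the letters of the windows and nothing more.

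Within cartilage the collagens changed with the state of the cells. The chondrocyte-like class had 6 clusters, set in order by genes of hypertrophy, the swelling of cartilage cells before bone replaces them (Ihh, Mmp13, Spp1, Ibsp and others, no collagen among them). The order ran 0, 1, 2, 6, 8 and 7, from cells led by Hapln1, Matn3 and Cnmd to cells led by Ibsp, Ihh and Mmp13. The genes did not all follow this order. Cluster 6 had more Ibsp (7825 against 1042 CPM) and Mmp13 (275 against 123) than cluster 2. It had less Ihh (18.0 against 86.2) and Col10a1 (213 against 1462), and more of the immature marker Ucma (1982 against 48.3). Col2a1 was highest in cluster 8, at 38032 CPM in control, 42046 in PTH and 45553 in YKL, save that in YKL cluster 1 had 49437. Col9a1 was highest in cluster 1 in every library (4098, 3833 and 4367 CPM) and lowest in the most hypertrophic cluster 7 (1514, 1264 and 1148). Col11a1 kept a narrower range, from 4425 CPM in cluster 2 to 10275 in cluster 1 over all libraries. Cluster 7 was the lowest over all libraries for most collagens of fibrous tissue.

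Cluster 6 stood apart by its fibrous collagens. It was led by Ibsp, Mgp, Ucma, Comp and Cthrc1, genes of mineralizing matrix, cartilage and fibrous tissue. Col1a1 there stood at 10676 CPM in control, 17089 in PTH and 17383 in YKL, against 699.7, 1876 and 876 in cluster 7. All 3 libraries had their highest Col1a1 in this cluster. Col3a1 (4507, 5709 and 3826 CPM), Col8a1 (77.9, 99.3 and 110.4) and Col14a1 (154, 70 and 22.9) were also highest in cluster 6 in each library. Over all libraries the fold between the highest and the lowest cluster was 13.9 for Col1a1, 11.3 for Col3a1, 25.3 for Col12a1 and 2.01 for Col2a1. Tendon marker Tnmd was at 229 CPM in cluster 6 and at most 42.1 in the other clusters, and its part in these levels was not tested.

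**Figure D4:**
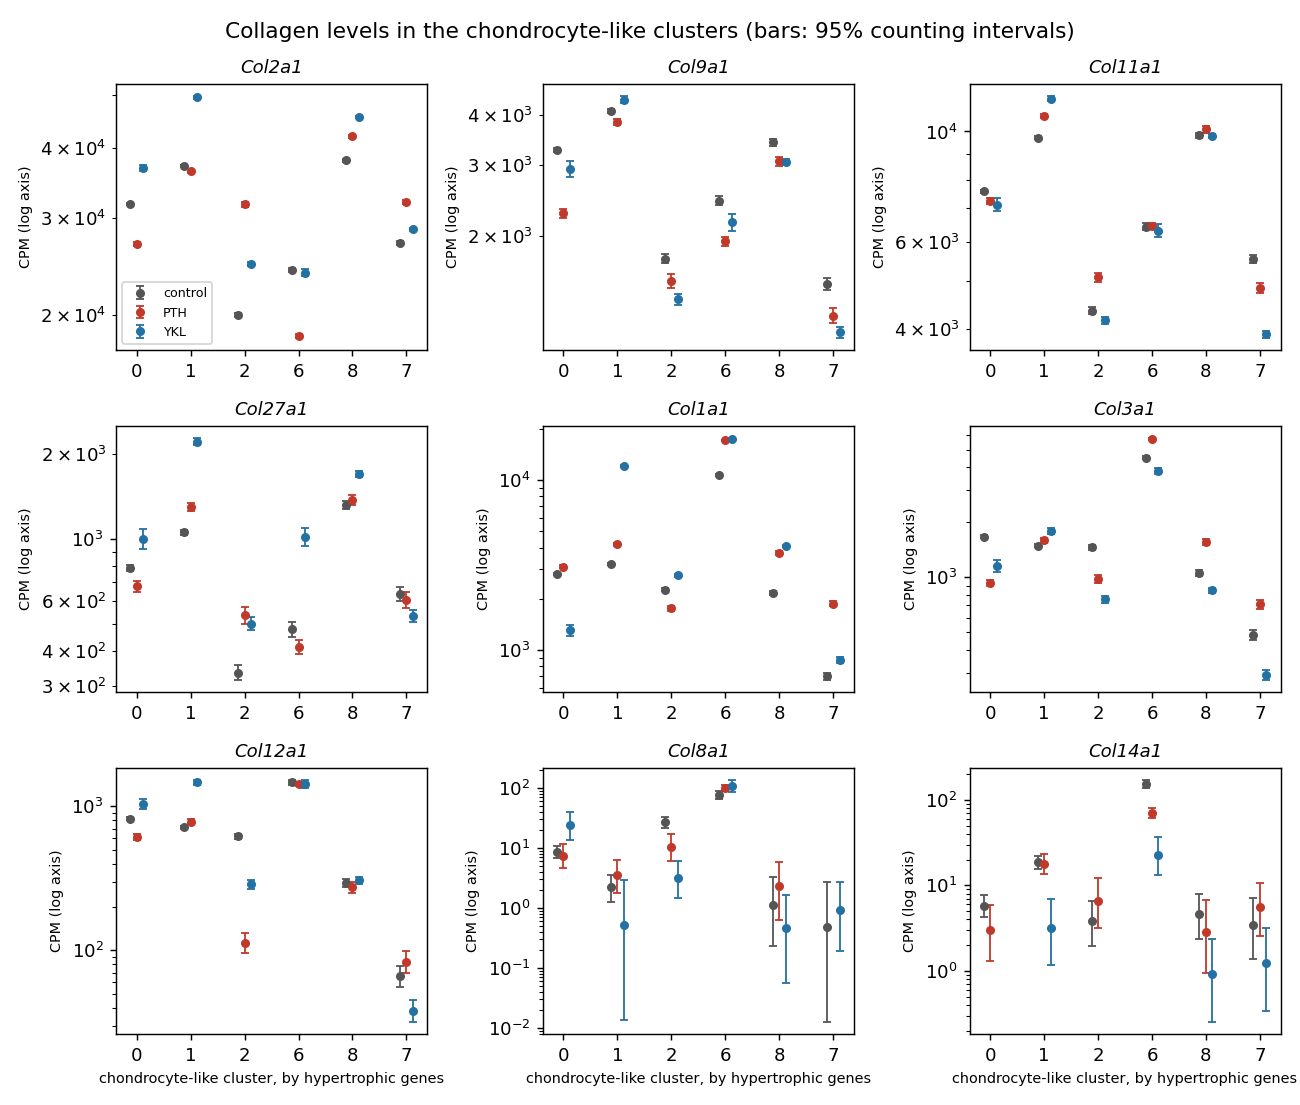
Levels of 9 collagens in the 6 chondrocyte-like clusters, ordered on the horizontal axis from the lowest to the highest score of hypertrophic genes, by library (colours), as CPM on log axes with 95% counting intervals; points at 0 UMIs are not drawn. Col1a1, Col3a1, Col8a1 and Col14a1 peak in cluster 6 in each library, and Col9a1 peaks in cluster 1.

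The libraries differed in which clusters made up their cartilage. Clusters 0 and 1 held 31.5% and 24.1% of the control chondrocyte-like cells, 22.5% and 17.4% of the PTH cells, and 5.68% and 10.7% of the YKL cells. Cluster 6 held 10.1%, 23.4% and 5.45%. The late clusters 8 and 7 held 27% and 26.6% of the YKL cells, against 9.13% and 8.81% of the control. Ratios between libraries are therefore given for the class and, for the genes that matter, within clusters. All of the 4 or 5 erythroid markers read were called lower in PTH and YKL than in control in every class compared. Their summed level in control ran from 2570.0 CPM in chondrocyte-like to 81719 in endothelial-like cells, and their part in the ratios was not tested. A gene was called where its CPM differed by at least 1.5-fold between the libraries, among genes with at least 50 UMIs over both.

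PTH chondrocyte-like cells held more Col1a1 RNA than control cells. Of 29 collagens read, 6 were called higher and 1 lower, and of all 11530 genes 6.70% were called higher and 3.16% lower. The median collagen differed by 0.21 on the log2 scale, against 0.01 for all genes. Col1a1 stood at 6150.3 CPM in PTH and 3299 in control, a ratio of 1.86 (1.85 to 1.88), and the type V chain Col5a2 at 1008 and 659 CPM, a ratio of 1.53 (1.5 to 1.57). PTH was above control for both. The low network chains Col8a1 (1.84 (1.58 to 2.14)) and Col8a2 (1.64 (1.36 to 1.99)), the multiplexin Col18a1 (1.71 (1.29 to 2.27)) and the anchoring fibril chain Col7a1 (2.15 (1.26 to 3.71)) were higher as well, each below 30 CPM in both libraries. Within clusters, the Col8a1 ratio was 1.28 (1.05 to 1.55) in cluster 6 and 0.392 (0.214 to 0.674) in cluster 2. In cluster 0 it was 0.854 (0.493 to 1.42). Col8a2 stood at 1.303 in cluster 6, 1.497 in cluster 0 and 0.841 in cluster 1, with every interval including 1. Col18a1 was read in cluster 6 alone, at 2.35 (1.36 to 4.24). Cluster 6 held 10.1% of the control and 23.4% of the PTH cells of the class, and the part of this was not tested. Col20a1 was lower, with 14 UMIs in PTH and 72 in control (0.366 (0.191 to 0.655)). The cartilage collagens were close, with Col2a1 at 0.965, Col11a1 at 0.996 and Col9a1 at 0.788 of control.

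The Col1a1 ratio varied by cluster. PTH over control was 2.68 (2.52 to 2.86) in cluster 7, 1.72 (1.66 to 1.78) in cluster 8, 1.6 (1.58 to 1.63) in cluster 6, 1.3 (1.28 to 1.33) in cluster 1 and 1.1 (1.07 to 1.13) in cluster 0, but 0.776 (0.742 to 0.811) in cluster 2. It was above 1 in 5 of the 6 clusters. Of 9 osteoblast-lineage markers read, 6 were also called higher in PTH chondrocyte-like cells (summed level 902 against 829 CPM). So were 3 of 12 fibroblast markers (3418 against 3644 CPM) and 2 of 6 tendon markers (965 against 968 CPM), with none lower, and the part of these markers was not tested. Cells with a UMI of the osteoblast-lineage genes Dmp1 or Ifitm5 made up 3.71% of the PTH and 1.46% of the control class. Without them, Col1a1 stood at 5746 CPM in PTH and 3145 in control, a ratio of 1.83, and the count of called collagens was again 7. The Col1a1 ratio was 1.45, below the call, both at a clustering resolution of 0.5, where Col8a1 turned to 0.654 and 2 collagens were called, and with clusters weighted equally, where 3 were called. The count was 4 of 21 read with cells thinned to 2000 UMIs, 12 of 32 with a minimum of 200 genes per cell and 14 of 32 with the highest doublet scores left out.

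**Figure D5:**
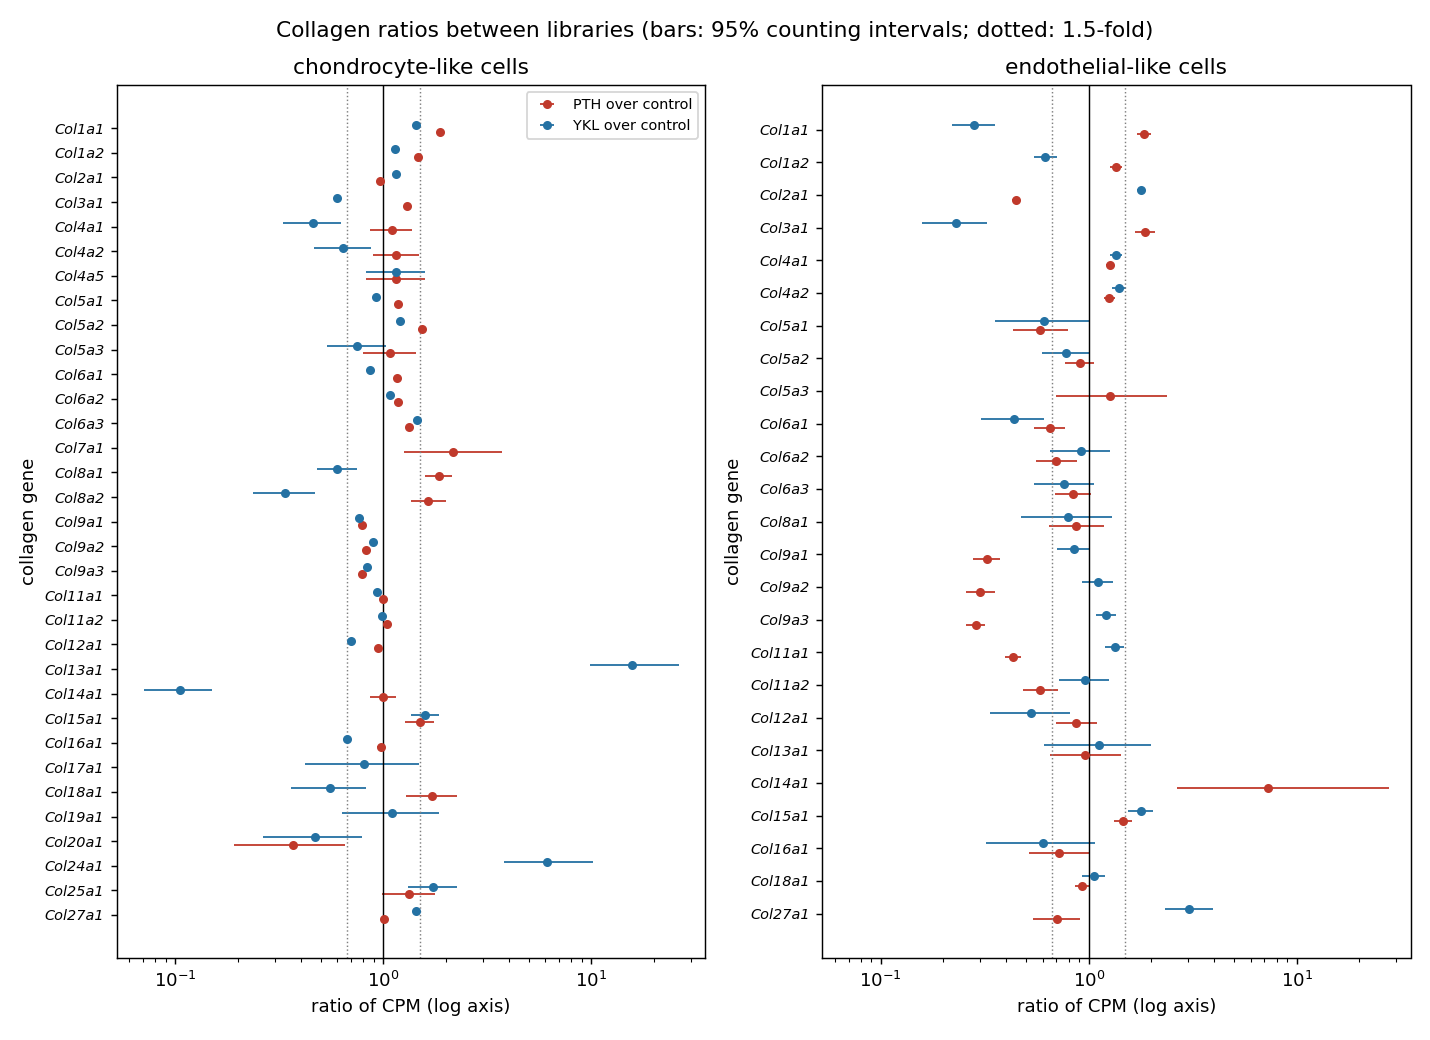
Ratios of CPM to the control library for each collagen with at least 50 UMIs over both libraries, in chondrocyte-like (left) and endothelial-like cells (right), for PTH (red) and YKL (blue), on a log axis with 95% counting intervals and dotted lines at 1.5-fold. In the right panel Col1a1 and Col3a1 lie above 1 for PTH and below 1 for YKL, and in the left panel Col13a1 and Col14a1 lie farthest from 1, both for YKL.

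In fibroblast-like cells no collagen was called higher in PTH and 11 of 26 were called lower, where 9.60% and 6.92% of 7931 genes were called higher and lower. The main collagens of the class were near control, with Col3a1 at 1.1 (1.09 to 1.12), Col1a1 at 1.08 (1.05 to 1.1) and Col14a1 at 0.999 (0.951 to 1.05). Among those called lower, Col8a1 stood at 372 CPM in PTH and 662 in control (0.562 (0.513 to 0.615)), Col15a1 at 103 and 165 (0.623 (0.522 to 0.746)) and Col18a1 at 75.6 and 125 (0.606 (0.493 to 0.747)). Col8a2 (0.402 (0.28 to 0.58)) and the type VI chain Col6a6 (0.613 (0.42 to 0.905)) were lower from levels under 50 CPM. The other 6 were cartilage collagens, Col2a1 (0.579), Col9a1 (0.324), Col9a2 (0.504), Col9a3 (0.63), Col11a1 (0.598) and Col11a2 (0.455). Col2a1 stood at 1054 CPM in control fibroblast-like cells, below the 1704 of leukocyte-like cells. Chondrocyte markers did not move one way, with 5 of 9 called higher in PTH and 3 lower (summed level 463 against 577 CPM). Col9a3 turned to 1.06 and 1.08 with a minimum of 200 and 1000 genes per cell, to 1.02 at a mitochondrial maximum of 20% and to 1.08 with collagens kept in the clustering. In the same 4 settings Col2a1 (0.830, 0.831, 0.837 and 0.834) and Col9a2 (0.765, 0.753, 0.684 and 0.760) were no longer called. With a mitochondrial maximum of 5%, a clustering in which tendon-like cells had no class of their own, 23 collagens were called, Col8a1 turned to 1.14, Col15a1 to 2.07, Col18a1 to 1.92, Col8a2 to 1.39 and Col6a6 to 3.73.

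Pericyte-like cells had 9 of 24 collagens called lower in PTH and none higher, beside 6.15% lower and 11.2% higher of 3724 genes. Col1a1 was at 1067 CPM in PTH and 1865 in control, a ratio of 0.572 (0.516 to 0.633), Col12a1 at 0.355, Col5a1 at 0.579, Col16a1 at 0.583 and Col14a1 at 0.473 of control. The remaining 4 were Col9a1 (0.316), Col9a2 (0.485), Col9a3 (0.267) and Col11a2 (0.279). Chondrocyte markers went the same way, with 5 of 9 called lower (summed level 1533 against 3311 CPM), while of 8 fibroblast markers 3 were called higher and 2 lower, and their part in the collagen ratios was not tested. The collagens that set the class apart were near control, Col3a1 at 0.982 (0.931 to 1.03), Col4a1 at 0.945 (0.875 to 1.02), Col18a1 at 1.02 (0.903 to 1.15) and Col6a3 at 1.0 (0.906 to 1.11). With the highest doublet scores left out, the type IX ratios turned to 1.64 (Col9a1), 1.35 (Col9a2) and 1.31 (Col9a3).

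Endothelial-like cells of the PTH library had 3 of 25 collagens called higher and 8 lower, beside 10.6% and 3.48% of 7482 genes. Type IV was somewhat higher without a call, at 1.27 (1.21 to 1.32) for Col4a1 and 1.26 (1.19 to 1.33) for Col4a2, and Col15a1 stood at 1.46 (1.32 to 1.62) and Col18a1 at 0.93 (0.855 to 1.01). The 8 lower members were Col2a1 (1522 against 3392 CPM, 0.449), Col9a1 (0.324), Col9a2 (0.302), Col9a3 (0.286), Col11a1 (0.433), Col11a2 (0.586), Col5a1 (0.586) and Col6a1 (0.648). Chondrocyte markers moved with them, 7 of 9 called lower and none higher (summed level 927 against 2543 CPM). The 3 higher members were Col1a1 (1067 against 579.7 CPM, 1.84 (1.7 to 2.0)), Col3a1 (571 against 306, 1.87 (1.67 to 2.09)) and Col14a1 (50 against 4 UMIs, 7.25 (2.66 to 27.6)). Tendon markers were higher too, 4 of 5 called (summed level 300.1 against 108 CPM), as were 4 of 10 fibroblast markers, while of 10 pericyte markers 4 were higher and 3 lower, and the part of these was not tested. The Col1a1 and Col3a1 ratios turned to 0.806 and 0.687 at a mitochondrial maximum of 5% and to 0.908 and 0.874 with the clusters of the class weighted equally, where 17 collagens were called. They were 1.47 and 1.28 with a minimum of 1000 genes per cell.

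YKL chondrocyte-like cells held less Col3a1 RNA, the type III chain, than control cells. Of 32 collagens read, 4 were called higher and 8 lower, beside 9.77% and 7.92% of 11533 genes, and the median collagen differed by -0.14 on the log2 scale against -0.01 for all genes. Col3a1 stood at 1004 CPM in YKL and 1677 in control (0.598 (0.587 to 0.61)). Within clusters its ratio was 0.52 (0.494 to 0.547) in cluster 2, 0.807 (0.768 to 0.848) in cluster 8 and 0.602 (0.55 to 0.659) in cluster 7, the clusters with at least 50 cells in both libraries. In the clusters with fewer YKL cells, Col3a1 stood at 1149 CPM in YKL against 1668 in control in cluster 0 (25 YKL cells) and at 3826 against 4507 in cluster 6 (24 cells). Cluster 1 (47 cells) went the other way, with 1794 CPM in YKL against 1484 in control. With clusters weighted equally the Col3a1 ratio was 0.814 and no longer called. Col14a1 was at 2.26 and 21.6 CPM (0.105 (0.0704 to 0.15)), Col8a2 at 0.336 (0.236 to 0.468) and Col8a1 at 0.598 (0.479 to 0.742) of control, though Col8a1 turned to 1.19 with clusters weighted equally. The vessel collagens Col4a1 (0.456 (0.328 to 0.624)), Col4a2 (0.639 (0.463 to 0.87)) and Col18a1 (0.554 (0.361 to 0.829)) and the rare Col20a1 (0.467 (0.262 to 0.792)) were lower from levels below 10 CPM. With the highest doublet scores left out, Col4a1 and Col4a2 turned to 1.22 and 1.12. Of tendon markers 4 of 6 (summed level 623 against 968 CPM), of fibroblast markers 4 of 11 (3278 against 3644 CPM, with 1 higher), of muscle markers 3 of 3 and of endothelial markers 3 of 5 were called lower as well, and their part was not tested.

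The collagens called higher in YKL cartilage were low-level chains. Col13a1, a transmembrane collagen, had 167 UMIs in YKL and 20 in control (15.6 (9.79 to 26.2)), Col24a1, a fibrillar chain of bone, 75 and 23 (6.1 (3.78 to 10.2)), Col15a1 296 and 349 (1.59 (1.35 to 1.86)) and the transmembrane Col25a1 108 and 117 (1.73 (1.32 to 2.26)). Chondrocyte-like cells with a UMI of Dmp1 or Ifitm5 numbered 36 in YKL (8.18% of the class) and 23 in control (1.46%). Their median depth was 45992 UMIs in YKL, against 29115 in the other YKL cells of the class. These 36 cells held 11.6% of all UMIs of the YKL class and 10.9% of its Col2a1 UMIs. They held 65.3% of the YKL Col13a1 UMIs, 64% of Col24a1, 51.4% of Col15a1 and 48% of Col1a1, but 5.56% of Col25a1. The choice to look at them was made after the ratios had been seen. Without them the Col13a1 ratio was 11 and that of Col15a1 turned to 0.883. Col1a1, at 4754 CPM in YKL against 3299 in control (1.44 (1.43 to 1.46)), stood without them at 2798 in YKL and 3145 in control. With all cells counted, Col1a1 in YKL against control was 12096 against 3211 CPM in cluster 1 and 17383 against 10676 in cluster 6. It was 4092 against 2166 in cluster 8, 2747 against 2266 in cluster 2 and 876 against 700 in cluster 7. Cluster 0 went the other way, with 1302 against 2807. Levels within clusters were not read without the 36 cells. Col25a1 was highest in cluster 7, at 22.3 CPM in YKL and 25.9 in control, a ratio of 0.86 (0.595 to 1.25) there, and its ratio turned to 0.918 with clusters weighted equally. Of 9 osteoblast-lineage markers read, 8 were called higher in the YKL class (summed level 1335 against 829 CPM). With cells thinned to 2000 UMIs, 5 of the 20 collagens still read were called, in place of 12 of 32.

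Endothelial-like cells of the YKL library, 53 in number, had 3 of 23 collagens called higher and 7 lower, beside 11.6% and 5.47% of 5066 genes. Col15a1 was higher, at 691 CPM against 388 (1.78 (1.55 to 2.04)), and Col4a1 (1.35 (1.27 to 1.44)) and Col4a2 (1.4 (1.29 to 1.51)) lay above control without a call. Col2a1 (1.79 (1.71 to 1.87)) and Col27a1 (3.02 (2.32 to 3.94)) were higher, and so were 4 of 9 chondrocyte markers (summed level 4315 against 2543 CPM). Col3a1 (35 against 418 UMIs, 0.23 (0.158 to 0.325)), Col1a1 (81 against 793, 0.281 (0.22 to 0.353)) and Col6a1 (0.435 (0.302 to 0.612)) were lower. Col12a1 (0.529), Col1a2 (0.62), Col5a1 (0.61) and Col16a1 (0.606 (0.322 to 1.07)) completed the 7, the last with an interval that includes 1. Of 6 fibroblast markers 1 was called higher and 2 lower, and of 4 pericyte markers 1 higher and 2 lower, and the part of these and of the chondrocyte markers was not tested. At a mitochondrial maximum of 20%, with 6 collagens called, the Col1a1 ratio turned to 1.12 and that of Col1a2 to 1.56. With the highest doublet scores left out, Col1a1 turned to 1.80, Col1a2 to 2.32 and Col6a1 to 1.59, and Col3a1, at 0.793, was no longer called.

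YKL and PTH chondrocyte-like cells had 2 of 29 collagens called higher in YKL and 7 lower, beside 6.15% and 7.35% of 11028 genes. Col3a1 stood at 1004 CPM in YKL and 2172 in PTH (0.462 (0.453 to 0.472)), and within clusters at 0.778 in cluster 2, 0.546 in cluster 8 and 0.409 in cluster 7. In clusters 0 and 1, with fewer than 50 YKL cells each, YKL stood above PTH for Col3a1 (1149 against 928 CPM and 1794 against 1592). With clusters weighted equally the Col3a1 ratio was 0.756, no longer called, and that of Col8a1 turned to 1.14. Col14a1 (0.105 (0.070 to 0.152)), Col8a2 (0.204 (0.143 to 0.286)), Col18a1 (0.324 (0.21 to 0.487)), Col8a1 (0.325 (0.26 to 0.403)), Col4a1 (0.417 (0.293 to 0.585)) and Col4a2 (0.556 (0.393 to 0.778)) were lower in YKL from levels below 30 CPM. Col13a1 (7.2 (4.64 to 11.7)) and Col24a1 (2.86 (1.81 to 4.66)) were higher. Of fibroblast markers 5 of 11 were called lower in YKL and 1 higher, of tendon markers 4 of 6 lower and of muscle markers 4 of 4 lower, and their part was not tested. Without the cells that had a Dmp1 or Ifitm5 UMI, 15 of 28 collagens read were called, 1 higher and 14 lower. With a minimum of 200 UMIs, 4 of the 21 still read were called. Both PTH and YKL ratios to control share the control library, so their values are set side by side only. For Col1a1 in chondrocyte-like cells these were 1.86 for PTH and 1.44 for YKL, and for Col3a1 1.29 and 0.598.

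In endothelial-like cells 7 of 24 collagens were called higher in YKL than in PTH and 5 lower, beside 8.23% and 10.7% of 6716 genes. All 7 were cartilage collagens, Col2a1 (3.99 (3.8 to 4.19)), Col9a1 (2.62), Col9a2 (3.66), Col9a3 (4.24), Col11a1 (3.08), Col11a2 (1.63) and Col27a1 (4.31). Chondrocyte markers went with them, 8 of 9 called higher (summed level 4315 against 927 CPM). The 5 lower were Col1a1 (0.152 (0.121 to 0.19)), Col1a2 (0.459), Col3a1 (0.123 (0.0853 to 0.172)), Col12a1 (0.607) and Col14a1 (1 UMI against 50, 0.0947 (0.00235 to 0.553)). Of the tendon markers 4 of 5 were called lower, and Tnmd, Scx, Mkx, Kera, Thbs4 and Abi3bp were at 0 in YKL endothelial-like cells. Of fibroblast markers 6 of 9 were lower (1592 against 2183 CPM), and of pericyte markers 5 of 8 lower and 2 higher (295 against 611 CPM), and the part of these markers was not tested. Col1a2 turned to 1.03 at a mitochondrial maximum of 20%. With the highest doublet scores left out Col12a1 turned to 1.30, and Col3a1 (0.669) and Col1a2 (0.924) were no longer called. Type IV, the collagen of these cells, lay within 1.5-fold, at 1.07 (1.01 to 1.13) for Col4a1 and 1.11 (1.03 to 1.19) for Col4a2.

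The genes that modify, export, trim, link, cut and bind collagen were read as 6 lists of 54 genes. Chondrocyte-like cells of the PTH library had 1 of 15 hydroxylation and glycosylation genes called lower and none higher, and their median differed by -0.22 on the log2 scale. All 12 folding and export genes lay within 1.5-fold, and of the other lists 2 of 6 trimming, 2 of 5 crosslinking and 1 of 7 receptor genes were called higher and 1 of 5 cleavage genes lower, beside 6.70% higher and 3.16% lower of all genes. Here and in the other classes the highest and lowest ratios are ranked only over genes that reached 50 CPM in either library. By ratio, the crosslinking enzyme Loxl4 (1.82 (1.71 to 1.95)), the membrane protease Mmp14 (1.42 (1.32 to 1.54)) and Creb3l1, a factor of the secretory pathway (1.41 (1.3 to 1.52)), were the highest. The glycosyltransferase Colgalt2 (0.666 (0.613 to 0.724)), Loxl3 (0.754 (0.707 to 0.804)) and the lysyl hydroxylase Plod2 (0.785 (0.771 to 0.80)) were the lowest. Of these 6 only Loxl4 and Colgalt2 passed 1.5-fold. The other called genes lay below 50 CPM and were named after their values were seen: Itga11 (3.27 (2.38 to 4.52)), Adamts2 (2.32 (1.86 to 2.89)), Loxl1 (1.87 (1.55 to 2.26)) and Adamts14 (1.72 (1.03 to 2.87)) were higher and Mmp9 (0.492 (0.315 to 0.747)) was lower. YKL cartilage had 2 of 15 hydroxylation and glycosylation genes called lower than in control, 2 of 6 trimming genes higher, and 2 of 5 cleavage genes higher and 1 lower. Of its crosslinking genes 1 of 5 was higher, and of its 12 folding and export and 7 receptor genes 1 each was higher and 1 lower, beside 9.77% higher and 7.92% lower of all genes. In YKL chondrocyte-like cells the collagenase Mmp13 (3.25 (3.11 to 3.4)), Loxl4 (3.15 (2.97 to 3.34)) and Pcolce2, which aids the trimming of procollagen (1.82 (1.78 to 1.87)), were called higher than in control. Plod2 (0.645 (0.632 to 0.658)), Creb3l2 (0.634 (0.597 to 0.673)) and the protease Ctsk (0.594 (0.54 to 0.652)) were called lower. Against PTH, YKL cartilage had Mmp13 at 3.29 (3.11 to 3.48), Pcolce2 at 1.97 (1.91 to 2.02) and the collagen receptor chain Itga1 at 1.96 (1.73 to 2.22), with Ctsk at 0.452 (0.409 to 0.499), Mmp2 at 0.549 (0.518 to 0.582) and Mmp14 at 0.556 (0.503 to 0.614).

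The other classes differed in which of these genes stood out. PTH fibroblast-like cells had Mmp13 at 8.7 (5.02 to 16.5) and the procollagen protease Bmp1 at 1.62 (1.4 to 1.88) times control, and Mmp9, which rests on 1 control UMI, at 81.3 (14.5 to 3227). Crtap (0.654 (0.545 to 0.787)), Fkbp10 (0.701 (0.574 to 0.857)) and Plod2 (0.714 (0.637 to 0.801)) were their lowest. Pericyte-like cells had Plod2 at 0.384 (0.238 to 0.598), Mmp2 at 0.566 (0.341 to 0.911) and the chaperone Hspa5 at 0.586 (0.496 to 0.691) as the lowest, and Tmem38b at 1.57 (1.02 to 2.41), the collagen receptor Ddr2 at 1.4 (1.01 to 1.94) and Plod1 at 1.38 (0.845 to 2.25) as the highest. In PTH endothelial-like cells Plod2 (0.526 (0.428 to 0.645)), the prolyl hydroxylase P4ha2 (0.541 (0.405 to 0.721)) and Ppib (0.687 (0.636 to 0.742)) were the lowest of that level, and Mmp2 (1.71 (1.29 to 2.28)), Itga1 (1.39 (1.18 to 1.65)) and Itgb1 (1.15 (1.05 to 1.25)) the highest. Below 50 CPM, and named after their values were seen, Pcolce2 (0.453 (0.297 to 0.688)), Loxl2 (0.509 (0.35 to 0.737)) and P3h2 (0.58 (0.387 to 0.869)) were called lower and Ctsk (2.74 (1.63 to 4.84)) higher. YKL endothelial-like cells had Pcolce2 at 4.39 (3.1 to 6.27), Plod2 at 1.64 (1.3 to 2.06) and P4ha1 at 1.56 (1.14 to 2.13) times control, with Mmp14 (0.727 (0.489 to 1.06)), Bmp1 (0.795 (0.471 to 1.29)) and Creb3l2 (0.90 (0.61 to 1.3)) the lowest of at least 50 CPM and none of these 3 called. Mmp2, below that level and named after its value was seen, was called lower (0.364 (0.159 to 0.732)). Over PTH, they had Pcolce2 at 9.69 (6.66 to 14.3), Plod2 at 3.11 (2.46 to 3.94) and P4ha2 at 2.66 (1.87 to 3.76), and Mmp2 at 0.213 (0.0961 to 0.413), Mmp14 at 0.789 (0.539 to 1.13) and Creb3l2 at 0.825 (0.571 to 1.16). In endothelial-like cells 8 of 13 hydroxylation and glycosylation genes were called higher in YKL than in PTH and none lower, beside 8.23% higher and 10.7% lower of all genes. Plod2 went the same way as the summed chondrocyte markers of these cells in all 3 comparisons, and the part of those markers was not tested.

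The remaining 15 members never came near the leading collagens. Their highest level in any class of at least 50 cells, over all libraries together, ran from 0.730 CPM (Col4a3 and Col4a6, in pericyte-like cells) to 32.0 CPM (Col13a1, in endothelial-like cells). Col6a6 reached 26.1 CPM in fibroblast-like cells, Col24a1 11.6 in Schwann-like cells and Col22a1 11.1 in tendon-like cells. The type IV chains of specialised membranes, Col4a3, Col4a4, Col4a5 and Col4a6, had 5, 53, 296 and 7 UMIs in all kept cells, against 17618 for Col4a1. Col25a1 had 331 UMIs, Col17a1 84, Col7a1 89, Col19a1 83, Col26a1 34, Col6a5 26 and Col6a4 6. At such counts a class that lacks a UMI cannot be told from one with a low level.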

How the data were processed

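Single-cell libraries (10x 3′ v3) of day 7 callus, 1 per group, were analysed. Values in the deposited matrices are unnormalized counts of UMIs, written by Cell Ranger 4.0.0 per the file headers, and the submitters' processing notes also name Seurat and mm10, with no filter given. The lowest barcode held 500 UMIs. Collagen members and gene lists were chosen with earlier results of these data known. No per-sample column went unused.

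Barcodes under 500 detected genes or above 10% mitochondrial UMIs were dropped (leaving 2944, 1913 and 606 of 8021, 5286 and 1500 barcodes). Libraries shared 8, 3 and 2 barcodes, 1 of them in kept cells. With Scanpy 1.11.5 (Python 3.11.15), cells were scaled to 10000 UMIs, and 2000 variable genes without any collagen, 30 components and 15 neighbours gave 22 Leiden clusters (resolution 0.8). Of these, 18 were named where at least 3 markers fixed for a class, none a collagen, reached 2-fold over the 25th percentile of clusters (10 CPM added) and were detected in a 0.1 share of cells or more. The naming rule was set with the data in view, and 318, 110 and 32 cells stayed unnamed. Unnamed clusters 11 (126, 25 and 9 cells, 21.6% haemoglobin UMIs) and 13 (58, 63 and 13 cells, led by Top2a and Ube2c) each reached 12 chondrocyte markers. Their cells are not part of the chondrocyte-like class. Doublets were not removed, and leaving out the highest scores (94, 48 and 4 barcodes) was an alternative.

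UMIs were summed per class and library. Intervals on CPM are exact Poisson and on ratios exact conditional binomial (95%, SciPy 1.17.1). UMIs of 1 library are not independent replicates, so intervals cover counting error only. The code was tested on simulated data. Named with values were collagens of at least 50 CPM over all libraries in a class of at least 50 cells, those at least 1.5-fold apart between libraries, and the 3 highest and 3 lowest processing genes per comparison that reached 50 CPM in either library. Alternatives changed the cell filters, clustering, doublets, depth, scaling and UMI minimum. One, without cells that had a Dmp1 or Ifitm5 UMI, was chosen after seeing the data.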

Additional observations from a re-analysis of the deposited data

Results flagged for a closer look

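Under the contrast of PTH over control, 5 collagens were called at least 1.5-fold higher in 1 class and at least 1.5-fold lower in another. The differences between the classes were not tested, since each group has 1 library. Col1a1 stood at 1.86 in chondrocyte-like and 1.84 in endothelial-like cells but at 0.572 in pericyte-like cells. Its endothelial-like ratio turned to 0.806 at a mitochondrial maximum of 5% and to 0.908 with clusters weighted equally. Relative to Col2a1, Col1a1 in control endothelial-like cells was at the leukocyte level. Col8a1 was at 1.84 in chondrocyte-like and 0.562 in fibroblast-like cells, Col8a2 at 1.64 and 0.402, and Col18a1 at 1.71 and 0.606 in the same classes. In chondrocyte-like cells Col8a1 turned to 0.654 at a clustering resolution of 0.5. In fibroblast-like cells Col8a1, Col8a2 and Col18a1 turned to 1.14, 1.39 and 1.92 at a mitochondrial maximum of 5%. Within chondrocyte-like clusters, Col8a1 was at 1.28 in cluster 6, 0.854 in cluster 0 and 0.392 in cluster 2. Col8a2 was at 1.303 in cluster 6, 1.497 in cluster 0 and 0.841 in cluster 1, and Col18a1 at 2.35 in cluster 6. Cluster 6 held 10.1% of the control and 23.4% of the PTH chondrocyte-like cells, and the part of this was not tested. Col14a1 was at 7.25 in endothelial-like cells, on 50 PTH and 4 control UMIs, and at 0.473 in pericyte-like cells.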

How the results depend on the processing

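With 1 library per group, the PTH and YKL differences have no replicate check, and pericyte-like, tendon-like and YKL endothelial-like cells are few. Class names rest on clustering, and the leukocyte background of PTH and YKL rests on 35 and 26 cells. No paired analysis was possible because each group has 1 library. Of single collagen ratios under the alternatives, 878 kept their direction and their side of 1.5-fold, 53 kept their direction and no longer passed it, and 30 turned. The 878 include 58 from the minimum of 200 UMIs, which changes only the genes read and cannot move a ratio. They also include 81 each from CPM without collagen UMIs and from the median ratio as scaling, which rescale the same sums. A ratio whose class or gene could not be read in an alternative was left out. Of counts, 135 stayed within 1.5 times the main value and 20 did not. The cause of each change was not tested, other than by the make-up of the alternative itself.

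With a minimum of 200 genes, where the tendon-like class held 60 control, 296 PTH and 18 YKL cells, 0 collagens marked chondrocyte-like and 0 tendon-like cells, 12 were past 1.5-fold in chondrocyte-like cells for PTH over control, and Col9a3 in fibroblast-like cells turned to 1.06. It turned to 1.08 with a minimum of 1000 genes, to 1.02 at a mitochondrial maximum of 20% and to 1.08 with collagens kept in the clustering. At a mitochondrial maximum of 5% no tendon-like, pericyte-like or macrophage-like class was formed, so these gave no value. Fibroblast-like cells then had 6 marking collagens and endothelial-like cells 4, and 23 were past 1.5-fold in fibroblast-like cells for PTH over control. There Col15a1 turned to 2.07, Col8a2 to 1.39, Col6a6 to 3.73, Col18a1 to 1.92 and Col8a1 to 1.14, and in endothelial-like cells Col3a1 turned to 0.687 and Col1a1 to 0.806. At a maximum of 20%, YKL over control had 6 past 1.5-fold in endothelial-like cells, with Col1a2 at 1.56 and Col1a1 at 1.12, and Col1a2 at 1.03 for YKL over PTH. Resolution 0.5 left 2 past 1.5-fold in chondrocyte-like cells for PTH over control and turned Col8a1 to 0.654. Leaving out the highest doublet scores gave 14 there. It turned Col9a1, Col9a2 and Col9a3 to 1.64, 1.35 and 1.31 in pericyte-like cells, Col4a1 and Col4a2 to 1.22 and 1.12 in chondrocyte-like cells for YKL over control, Col1a2, Col6a1 and Col1a1 to 2.32, 1.59 and 1.80 in endothelial-like cells, and Col12a1 to 1.30 there for YKL over PTH. With cells thinned to 2000 UMIs, 2 collagens marked fibroblast-like and 1 endothelial-like cells, and fewer collagens could be read. Past 1.5-fold for PTH over control were 4 of 21 read in chondrocyte-like, 5 of 19 in fibroblast-like and 5 of 16 in pericyte-like cells. For YKL over control in chondrocyte-like cells they were 5 of 20. Of the single ratios still read after thinning, 24 kept their side of 1.5-fold, 3 did not and 0 turned. A minimum of 200 UMIs left 4 of 21 read for YKL over PTH in chondrocyte-like cells. With clusters weighted equally, the counts were 3 in chondrocyte-like and 17 in endothelial-like cells for PTH over control, with Col3a1 at 0.874 and Col1a1 at 0.908 in the latter, and 6 in endothelial-like cells for YKL over control. In chondrocyte-like cells Col25a1 and Col8a1 turned to 0.918 and 1.19 for YKL over control, and Col8a1 to 1.14 for YKL over PTH. Leaving out chondrocyte-like cells with Dmp1 or Ifitm5 turned Col15a1 to 0.883 for YKL over control and gave 15 past 1.5-fold for YKL over PTH.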
